A study of Mus musculus with 12 samples.

Results

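The 683 genomic intervals described here were chosen on measured values in mouse cells undergoing reprogramming by OSKM, the factors Oct4, Sox2, Klf4 and c-Myc. An interval was taken when its mean accessibility was higher in the Zfp266 knockout (KO) than in control cells, when a peak called in the reprogramming control overlapped it by at least 1 bp, and when its mean in fibroblasts was under 0.5 of its mean in the reprogramming control. These are sites that were more open in control cells during reprogramming than in fibroblasts, and at which the KO libraries carried more signal still. Not all were closed before, since a peak called in control fibroblasts overlapped 87 of the 683. Of the 1608 intervals listed as different between KO and control during reprogramming at a false discovery rate of 0.05, 1522 were higher in the KO. The 683 were part of those 1522. Another 146 also had a control peak but fibroblast means from 0.5 of the control mean up to it, 160 had a control peak and fibroblast means at or above it, and 533 had no control peak. The 1522 made up 0.557% of the 273256 intervals in the union of the 4 peak lists. The direction of the KO difference, the low fibroblast values and the control peak were fixed by the choice and are given as descriptions without a test.

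Open chromatin was profiled with Omni-ATAC-seq, in which a transposase cuts and tags open DNA. The 12 libraries fell into 4 groups of 3: fibroblasts (MEF) with a non-targeting control sgRNA, MEF with a Zfp266 sgRNA, reprogramming cells with the control sgRNA and reprogramming cells with the Zfp266 sgRNA. The labels give all cells as passage-2 MEFs of strain 129 from E12.5 embryos. The line carried Cas9 driven by the EF1α promoter at Rosa26, a Nanog-GFP reporter and a doxycycline-inducible MKOS-mOrange cassette at Sp3. The embryos were chimaeras made by aggregating morulae with cells of 1 ES cell clone, so MEF libraries, whose sort gate is not given in the sources used here, may also hold cells of the host embryo without the transgenes. Each KO was a transduced population and not a clone. Every library started from 50000 cells sorted 96 h after transduction. The reprogramming groups had spent the last 72 h of this time in medium with doxycycline at 300 ng/ml and vitamin C at 10 µg/ml, and were sorted for mOrange, which marks cells that express the factors. The methods describe such cells as seeded among an excess of wild-type MEFs for the matching RNA samples, which the ATAC samples followed. The MEF groups stayed in fibroblast medium. Neither the labels nor the methods say whether the 3 libraries of a group came from separate embryos, so their spread may be technical.

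ZFP266 is a KRAB zinc-finger protein. Proteins of this family bind DNA through their zinc fingers and recruit a repressor complex through the KRAB domain, and many bind transposable elements. B1 and B2 are the main mouse short interspersed elements (SINEs): B1 derives from 7SL RNA, B2 from a tRNA, and both are spread through introns and between genes. In reprogramming, OCT4, SOX2 and KLF4 bind closed and open chromatin of the fibroblast genome, sites of the fibroblast program kept open by AP-1 close, and new sites open.

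B1 was the most common of the sequence features searched, so the copies in named intervals are shown first. In all, 564 of the 683 intervals (82.6%, 95% Wilson interval 79.6 to 85.2) held at least 1 B1 element, against 8.11% of all intervals in the union. Each sequence below is read from the GRCm38.p6 reference on the strand of its B1 copy, 5′ to 3′, with 25 bases of flank on each side, so that the copy starts at base 26. The capitals mark bases 29 to 36, which lie at positions 4 to 11 of the B1 query. In these 4, the largest ratios among the named intervals with such a copy, the letters make a KLF string, one of the C-rich/G-rich 8-base words bound by Krüppel-like factors.
Interval_172482, upstream of Pkn2, chr3:142930118-142930307, + strand: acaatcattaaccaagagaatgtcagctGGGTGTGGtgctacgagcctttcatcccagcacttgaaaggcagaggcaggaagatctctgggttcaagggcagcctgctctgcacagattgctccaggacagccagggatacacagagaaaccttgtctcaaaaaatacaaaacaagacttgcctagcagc
Interval_171460, intron of Tet2, chr3:133533310-133533503, - strand: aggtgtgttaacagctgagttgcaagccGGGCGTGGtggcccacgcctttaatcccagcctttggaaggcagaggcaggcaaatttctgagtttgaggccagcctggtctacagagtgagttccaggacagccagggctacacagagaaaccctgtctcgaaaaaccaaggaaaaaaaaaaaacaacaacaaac
Interval_240888, upstream of Zfp42, chr8:43348015-43348210, + strand: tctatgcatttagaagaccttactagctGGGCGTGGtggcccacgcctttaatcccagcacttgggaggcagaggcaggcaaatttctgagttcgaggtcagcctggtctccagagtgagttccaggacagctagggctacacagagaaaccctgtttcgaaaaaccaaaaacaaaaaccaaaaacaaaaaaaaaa
Interval_114724, upstream of Pou5f1, chr17:35489250-35489441, - strand: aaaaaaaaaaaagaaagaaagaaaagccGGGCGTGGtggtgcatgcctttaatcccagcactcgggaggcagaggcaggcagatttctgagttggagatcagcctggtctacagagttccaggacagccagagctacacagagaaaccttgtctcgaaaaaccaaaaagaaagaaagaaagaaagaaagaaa
The copies near Tet2, Zfp42 and Pou5f1 matched the B1 query at 95.8%, 95.2% and 91.8% of aligned bases, and the copy near Pkn2 at 82.1%. In each the head of the element, its 5′ end, faced the midpoint of the interval, at a distance of 8 to 123 bp.

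Before the results, the identity of the cells was checked on peaks over start sites. All 8 fibroblast markers tested, such as Thy1, Col1a1, Pdgfra and Twist1, had a peak in all 4 groups, and none of the 3 endothelial and 3 blood markers had one in any group. Start-site peaks did not separate epithelial cells from fibroblasts, since the epithelial markers Cdh1, Epcam and Cldn4 had peaks in all 4 groups, at 4.65-, 3.94- and 3.02-fold in MEF control, and Krt8 had one in the reprogramming groups. Of 4 pluripotency markers, Zfp42 had a start-site peak only in the 2 reprogramming groups, with 8.75-fold enrichment in control and 8.95-fold in KO, Esrrb had one in all 4 groups, and Nanog and Dppa5a had none in any. Zfp266 itself had a start-site peak in all 4 groups, which does not check the knockout, since accessibility there does not report on an sgRNA cut. Read totals over the 1608 listed intervals ran from 141616 to 197057 in the control libraries and from 191347 to 324141 in the KO libraries, and the counts below were scaled for depth.

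By the choice, the 683 intervals had less signal in fibroblasts than in the reprogramming control, and more in the KO, at the median 1.82 times as much as in control. Over them the median normalised read count per interval was 98.3, 92.5 and 102 in the 3 control libraries and 186, 184 and 197 in the 3 KO libraries. These gave 97.6 ± 4.69 in control and 189 ± 6.81 in KO (SD of library medians, n = 3), a separation that follows from the choice. The median fibroblast mean, over the 6 MEF libraries of both sgRNAs, was 12.1.

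**Figure D1:**
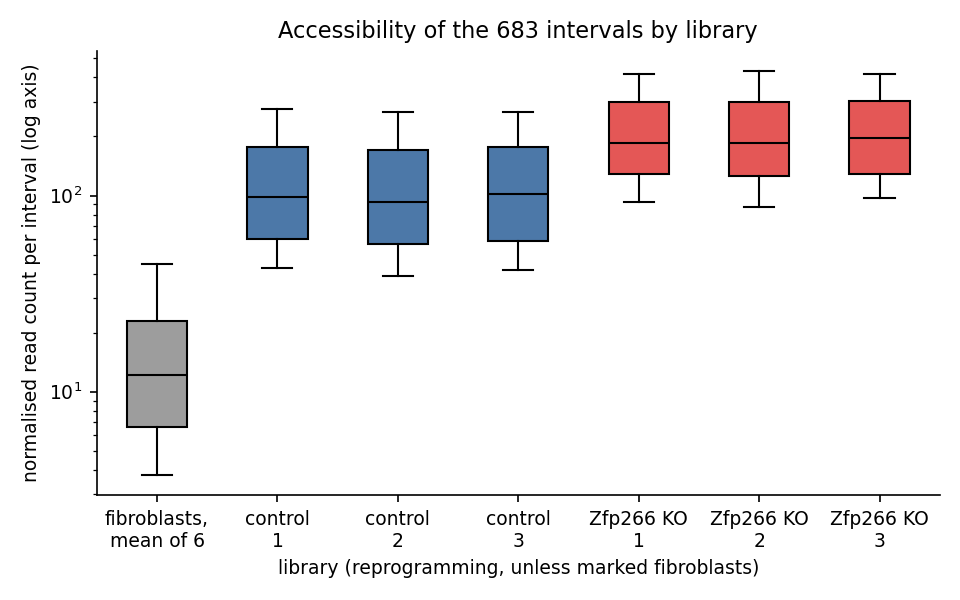
Normalised read count per interval on a log axis for the 683 intervals, as the mean of 6 fibroblast libraries (grey) and in each reprogramming control (blue) and KO (red) library. Boxes run from the 25th to the 75th percentile with the median as a line, and whiskers from the 10th to the 90th percentile. The control medians lie between 92.5 and 102 and the KO medians between 184 and 197.

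Relative to fibroblasts, the control mean was higher by a median of 7.75-fold and the KO mean by a median of 15.0-fold. Control means ran from 21.7 to 1627 with a median of 97.7, and KO means from 53.8 to 2016 with a median of 187. The fibroblast mean was 12.9% of the control mean at the median and 3.42% at the 10th percentile. These fibroblasts were uninduced cultures taken at the same time after transduction, and the choice itself kept every interval under 0.5 of the control mean.

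The KO mean exceeded the control mean by a median of 1.82-fold, or 0.87 on the log2 scale. The ratio was under 1.5-fold at 111 intervals, from 1.5- to 2-fold at 327, from 2- to 3-fold at 209, from 3- to 4-fold at 27 and above 4-fold at 9. In all 683 intervals the lowest KO library lay above the highest control library. The same held for all 146, 160 and 533 intervals of the other more open classes, so nothing is read from it. Listing favours intervals whose spread is small beside their difference. The SD was 9.67% of the mean over control libraries and 7.54% over KO libraries at the median interval. In bulk libraries, a greater share of cells with a site open and a more open site in each cell cannot be told apart.

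Ratios were larger where control accessibility was lower, which the choice favours, since an interval with few reads is listed only if its ratio is large. The 683 were split into 4 bins of near-equal number by control mean. In the bin with the lowest control means (21.7 to 58.4) the median ratio was 2.31-fold, and in the successive bins it was 1.88-, 1.69- and 1.49-fold. The difference in normalised count ran the other way, from a median of 53.3 in the lowest bin to 68.6, 90.5 and 136. Across the 683 intervals the control mean and the log2 ratio had a Spearman rho of -0.73, in which the control mean enters both measures. The fibroblast level relative to control had a weaker relation to the log2 ratio, with a Spearman rho of 0.13, in which the control mean again enters both measures. In 4 such bins of that share, from the lowest to the highest, median ratios were 1.74-, 1.79-, 1.94- and 1.82-fold.

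Compared with the other more open classes, these intervals had an intermediate ratio. The median was 2.96-fold at the 533 intervals with no control peak, whose control means had a median of 21.4 and reached 191, 1.74-fold at the 146 with fibroblast means of 0.5 to 1 of control and 1.65-fold at the 160 open in fibroblasts at or above control. The differences between classes were not tested, since the choice used the same values.

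The largest ratio was at Interval_264775 (chr9:120744591-120745693), in an intron of the non-coding gene Gm47064. Its normalised counts were 65.9, 29.0 and 74.4 in control and 467, 443 and 418 in KO, against 4.24 in fibroblasts, a ratio of 7.83-fold (56.4 ± 24.1 and 442 ± 24.5, SD, n = 3). The control SD was 42.7% of the mean, the highest of the 683, with the second library well below the others. The low second library raises the ratio, so the rank of this interval leans on it. The interval held 2 B1 elements. Interval_190390 (chr4:150504245-150505581) lay in an intron of Rere, which encodes an atrophin-family transcriptional coregulator. It had 45.8, 59.0 and 53.5 in control and 329, 319 and 316 in KO, or 6.09-fold, and its fibroblast mean of 25.5 was 48.4% of the control mean. It therefore met the fibroblast bound narrowly.

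The next 4 by ratio were spread over 4 chromosomes, and each held 1 B1 element. Interval_179799 (chr4:59334256-59335011), in an intron of Susd1, had 26.8, 30.8 and 27.4 in control and 164, 146 and 162 in KO (5.55-fold). Interval_8389 (chr1:87297399-87298181), in an intron of Efhd1, which encodes a mitochondrial calcium-binding protein, went from 38.5 ± 4.29 to 196 ± 19.3 (5.09-fold). Interval_78418 (chr14:23231956-23232807) was intergenic, 310905 bp downstream of the nearest protein-coding start site, that of the potassium channel gene Kcnma1, and went from 30.5 ± 3.87 to 150 ± 22.7 (4.93-fold). Interval_172482 (chr3:142929868-142930400) lay 48130 bp upstream of Pkn2, which encodes a protein kinase. Its counts were 44.7, 39.9 and 41.8 in control and 173, 208 and 192 in KO (4.53-fold), and its B1 copy printed above, which carried the KLF string, had its head 8 bp from the midpoint. Across these 4 the highest control library was at 44.7 and the lowest KO library at 124.

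At the other end, the smallest ratios belonged to wide and strongly open intervals. Interval_187646 (chr4:132308320-132314507) covers Snhg12, a small nucleolar RNA host gene, and the 3′ end of Trnau1ap. It rose from 1627 ± 75.5 to 1928 ± 52.9, or 1.19-fold. Interval_23923 (chr10:39570622-39575647), in an intron of Traf3ip2, an adaptor of IL-17 signalling, went from 1499 ± 90.7 to 1832 ± 67.8 (1.22-fold). Interval_34575 (chr10:128900517-128904257), over a start site of the tetraspanin gene Cd63, had 917, 898 and 927 in control and 1032, 1127 and 1242 in KO (1.24-fold) and held 6 B1 elements. The first and second of these were also among the 3 with the highest control means, the other being Interval_187652 (chr4:132348819-132351324), in an intron of Rcc1, the nucleotide exchange factor of Ran, at 1549 ± 111 and 2016 ± 62.3.

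**Figure D2:**
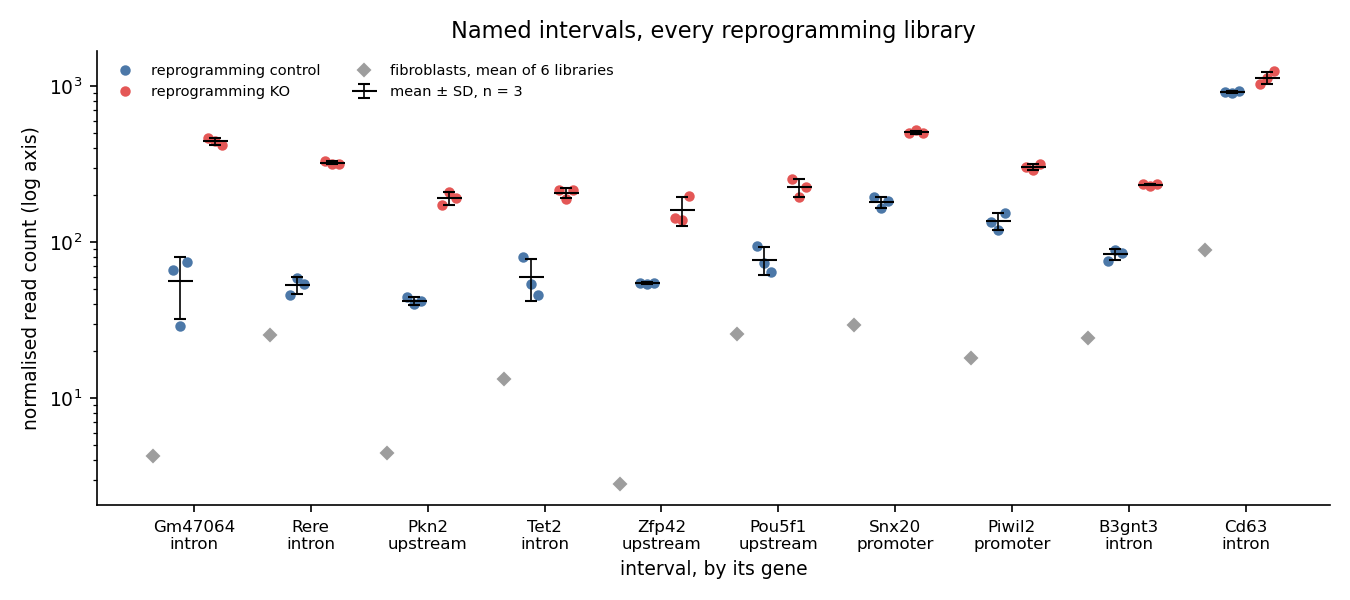
Normalised read count on a log axis for 10 of the named intervals, in each reprogramming control (blue) and KO (red) library, with the mean and SD (black, n = 3) and the mean of the 6 fibroblast libraries (grey). KO points lie above control points in every interval, by 7.83-fold in Gm47064 and 1.24-fold at Cd63.

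The fibroblast bound of 0.5 divided intervals with like values. Just inside it were Interval_119756 near Kcng3, Interval_46758 near Epop and Interval_105362 in Cd200r1, with fibroblast means of 49.93%, 49.89% and 49.87% of control and ratios of 2.52-, 1.39- and 2.30-fold. Just outside were Interval_219436 in Cacna1c, Interval_48380 in Bptf and Interval_34325 near Shmt2, at 50.69%, 50.89% and 51.19%, with ratios of 1.42-, 1.85- and 1.67-fold. The 2 sides of the bound are therefore a division of a continuous range.

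Most of the 683 intervals lay away from promoters. Midpoints fell in introns at 53.9%, between genes at 34.7%, within 1000 bp of an annotated start site at 8.49% (6.63 to 10.8) and in other exons at 2.93%. Over the union these shares were 44.9%, 40.2%, 11.2% and 3.74%. The median distance to the nearest protein-coding start site was 10904 bp, against 23704 bp over the union, and 55 intervals were over 100000 bp away. Intervals were long, with a median of 1050 bp against 732 bp. Every autosome and the X carried some, from 11 on chromosome 19 to 62 on chromosome 11. Per 1000 intervals of the union, chromosome 11 had 3.85, chromosome 17 had 3.64 and chromosome 15 had 1.39.

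Only 25 of the 683 (3.66%, 2.49 to 5.35) overlapped a protein-coding start site, against 7.25% of the union. The largest ratio among them was at Anks3 (Interval_100297, chr16:4947958-4949957), with 112, 109 and 110 in control and 332, 383 and 364 in KO (3.27-fold). That interval held 4 B1 elements and 2 B2 elements. Snx20, a sorting nexin, followed at 2.80-fold with no B1 or B2 alignment of at least 60 bases, then Arl9, an ARF-like GTPase, at 2.45-fold (136 ± 8.72 and 334 ± 20.8) and Atad2b, a bromodomain ATPase, at 2.34-fold (119 ± 1.14 and 277 ± 35.5). Piwil2 (2.22-fold) and Ash2l, a subunit of histone H3K4 methyltransferase complexes (2.21-fold, 79.98 ± 2.36 and 177 ± 36.8), completed the 6 largest. For each of these 6 the fibroblast mean was between 5.38% and 37.2% of control.

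Each interval was assigned to the protein-coding gene whose start site it overlapped, whose body or 1000 bp flank held its midpoint, or whose start site was nearest. This gave 634 genes, of which 46 had 2 or more intervals and 3 had 3, namely Rad54l2, Usp7 and Wwtr1. Along the chromosomes, 44 pairs of neighbouring intervals lay within 50000 bp of each other. The 634 were 2.89% of the 21924 protein-coding genes of the annotation. The assignment is by position and says nothing about control of the gene.

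Of 48 genes on a pluripotency list, 5 had at least 1 of these intervals, read beside 2.89% of all protein-coding genes. They had 7 intervals in all, of which the 4 with the largest ratios, at Pou5f1, Tet2 and Zfp42, are described here. The study names Pou5f1, Sall4, Tet2 and Zfp42 among genes with more open regions in these samples, so the count is no independent evidence. The largest ratio was in Tet2, which encodes a 5-methylcytosine dioxygenase (Interval_171460, chr3:133532799-133534331). Counts there were 80.5, 53.5 and 45.7 in control and 214, 188 and 214 in KO (3.43-fold), with the first control library above the others. A distal Tet2 interval, Interval_171484 (chr3:133786207-133786803), 241366 bp upstream, went from 27.5 ± 3.08 to 61.4 ± 6.45 (2.23-fold). Near Zfp42 (Rex1), a marker of naive pluripotent cells, Interval_240888 (chr8:43347555-43348300) lay 40947 bp upstream and had 54.8, 53.5 and 54.8 in control against 143, 139 and 199 in KO (2.94-fold). Near Pou5f1, which encodes OCT4, Interval_114724 (chr17:35488471-35490608) lay 16479 bp upstream and had 93.9, 73.5 and 64.0 in control against 253, 193 and 227 in KO (2.91-fold). The Tet2 intron, Zfp42 and Pou5f1 intervals each held a B1 copy with the KLF string at its head.

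On the other lists, read beside the 2.89% of all protein-coding genes that had an interval, the counts were as follows. Of 42 epithelial genes none had one, and of 45 mesenchymal genes only Runx1 did, at Interval_109674 (chr16:92920373-92920988), 94531 bp upstream (62.1 ± 1.87 and 117 ± 17.4, 1.89-fold). The list of KLF, SOX and POU family genes was partial and left out those on the pluripotency list, such as Pou5f1. Of its 30 genes, Klf9 and Sox5 each had 1. Interval_132716 (chr19:23087469-23087986), 53499 bp upstream of Klf9, had 34.6, 28.1 and 41.8 in control and 120, 129 and 135 in KO (3.67-fold). Interval_222129 (chr6:144738038-144738693), in an intron of Sox5, went from 132 ± 6.41 to 259 ± 20.5 (1.95-fold).

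Among the 30 germline genes of the list that were in the annotation, 3 had an interval: Piwil2, Stk31 and Tdrd9, which act in germ cells. Interval_211974 (chr6:49410525-49411541), in an intron of Stk31, had the highest fold enrichment of a control peak among the named intervals, 7.10-fold, and its counts went from 242 ± 17.97 to 408 ± 18.8 (1.69-fold). Interval_62458 (chr12:111988020-111989456), in an intron of Tdrd9, a piRNA pathway helicase, went from 44.9 ± 15.9 to 94.9 ± 4.44 (2.11-fold). It held 2 B1 elements, and 2 of its KLF strings lay on them.

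B3gnt3, Piwil2 and Snx20, the loci that the study took on to reporter assays, had 5 of these intervals in all. Only the 4 with the largest ratios are described. The study chose these loci with the same samples in view, so they are no independent evidence. Interval_245506 (chr8:88634971-88636272), over a Snx20 start site, had 193, 164 and 184 in control and 497, 519 and 502 in KO (2.80-fold), and Interval_245505 (chr8:88630845-88631328), in a Snx20 intron, had 84.9, 81.7 and 83.5 against 239, 240 and 256 (2.94-fold). Neither held a B1 alignment of the 60 bases required here, but partial B1 alignments of 41 and 44 bases were found in them. Interval_243537 (chr8:71698181-71699230), in an intron of the glycosyltransferase gene B3gnt3, had 76.0, 88.9 and 84.8 in control and 235, 230 and 235 in KO (2.80-fold), with 1 B1 element. Interval_83942 (chr14:70428951-70430258), over a start site of Piwil2, a PIWI protein of the piRNA pathway, had 134, 120 and 154 against 303, 288 and 314 (2.22-fold), with 1 B1 element and 4 KLF strings, none on that element.

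The B1 share was high throughout the set. It was 81.3%, 81.9%, 83.5% and 83.6% in the 4 successive bins of control mean. Of the 683 intervals, 428 held 1 B1 element, 107 held 2, 29 held 3 or more and 119 held none. The median KO/control ratio was 1.88-fold with 1 element, 1.79-fold with 2, 1.576-fold with 3 or more and 1.77-fold with none. Intervals with more elements were longer, with median lengths of 785, 994.5, 1408 and 2293 bp from none to 3 or more. The highest control means were 459, 1163, 1549 and 1627 in that order, so number of copies, length and control level cannot be told apart here.

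The B1 share was as high among intervals of like length. From the 25th to the 75th percentile of the lengths of these intervals (734 to 1619 bp), 86.0% (81.9 to 89.2) of 342 held B1, against 9.56% of 95673 union intervals of those lengths. In the central 400 bp, B1 was found in 43.9% (40.2 to 47.7), against 3.85% of the union. The other more open classes had high B1 shares too, 77.4% (69.96 to 83.4) with fibroblast means of 0.5 to 1 of control, 78.8% (71.8 to 84.4) at or above control and 65.9% (61.7 to 69.7) without a control peak. Those without a control peak were shorter, with a median of 545 bp, and in the central 400 bp their B1 share was 52.0% (47.7 to 56.2). These differences between classes were not tested.

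B2 elements were less common, in 154 intervals (22.5%, 19.6 to 25.8) against 7.63% of the union. Over that range of lengths the B2 share was 21.6% against 8.20%. Repeat-masked bases made up 37.0% of the median interval against 14.1% over the union, while GC content was the same, 45.2% in each. How reads that match several repeat copies were treated is not given in the sources used here. The part of multiply mapping reads in these values was not tested.

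**Figure D3:**
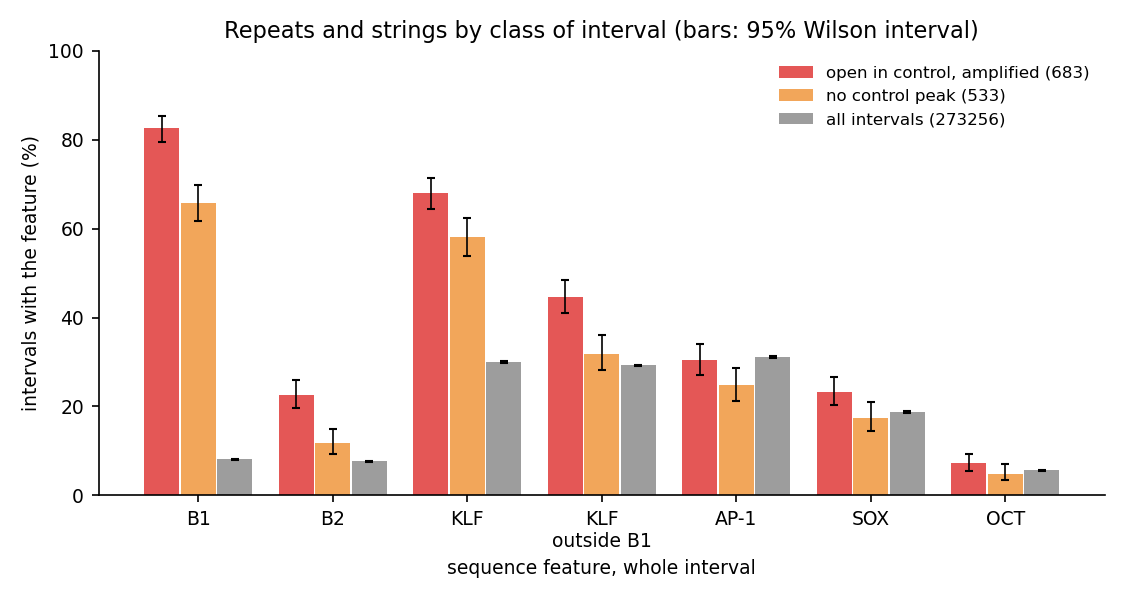
Percent of intervals that hold each repeat or string anywhere in the interval, for the 683 intervals (red), the 533 more open intervals with no control peak (orange) and all 273256 intervals of the union (grey), with 95% Wilson intervals. B1 reaches 82.6% in red and 8.11% in grey, while AP-1 stands at 30.5% and 31.1%.

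Factor strings were searched on both strands. The KLF string was GGGCGGGG, GGGCGTGG, GGGTGGGG or GGGTGTGG, the SOX string CCATTGTC, CCATTGTT, CCTTTGTC or CCTTTGTT, the OCT string ATTTGCAT and the AP-1 string TGACTCA or TGAGTCA. A KLF string was present in 464 intervals (67.9%, 64.3 to 71.3) against 30.0% of the union. With B1 elements masked, the share fell to 44.7% (41.0 to 48.4), against 29.2% of the union treated the same way. The shares in the other more open classes were 72.6% with fibroblast means of 0.5 to 1 of control, 71.2% at or above control and 58.2% without a control peak, and 53.4%, 51.2% and 31.9% with B1 masked. Over that range of lengths, unmasked, the share was 66.4% in these intervals against 35.2% of the union. These intervals were longer than those of the union (medians of 1050 and 732 bp), and the masked share was not taken over that range. A KLF excess outside B1 at like length was therefore not tested. The other classes also differed in length, with medians of 1622.5, 1840.5 and 545 bp in the order above, and their differences were not tested. A match is a description of the letters and not of binding.

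SOX and OCT strings were close to the union once length was held, while the AP-1 string was less frequent. From 734 to 1619 bp the shares were 22.5% and 22.5% for SOX, 6.73% and 6.64% for OCT, and 27.2% (22.8 to 32.1) and 36.7% for AP-1, in these intervals and the union in turn. AP-1 is the factor family of open fibroblast enhancers. Over whole intervals the AP-1 string stood at 30.5% (27.1 to 34.0) here, at 51.4% (43.3 to 59.3) in the class with fibroblast means of 0.5 to 1 of control and at 68.8% (61.2 to 75.4) in the class open in fibroblasts at or above control, and at 24.8% (21.3 to 28.6) in the class without a control peak. The 2 classes with higher fibroblast means were longer, with medians of 1622.5 and 1840.5 bp, the last was shorter, and the differences were not tested.

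The KLF strings on B1 lay almost all at the same place. Of 795 KLF strings in the 683 intervals, 276 were on a B1 element, and 261 of these were at positions 4 to 11 of the query, at the head of the element. The letters there were GGGCGTGG in 175 copies and GGGTGTGG in 86. The C of the CpG in the former is a T in the latter. Among all 745 B1 copies found with 150 bp of flank added to each interval, 488 had an aligned head, and 53.5% (49.1 to 57.9) of those heads carried the KLF string. Over the union 30.6% (29.8 to 31.5) of 11508 aligned heads did. GGGCGTGG alone made up 35.9% of aligned heads here and 20.6% over the union, and GGGCATGG, which is no KLF string, 5.33% and 7.70%. Counted by interval, 248 of the 683 (36.3%, 32.8 to 40.0) held a B1 copy with the KLF string at its head, against 1.26% of the union.

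B1 copies in all classes of more open intervals were nearer to the query than copies over the union. The median identity was 91.2% over the 743 copies here, 90.5% in the class without a control peak, 90.5% and 89.1% in the classes with fibroblast means of 0.5 to 1 of control and at or above it, and 83.8% over 26665 copies in the union. Here and in the union, median aligned lengths were 134 and 124 bases. A head reached query position 4 or an earlier one in 65.5% (62.0 to 68.8) of copies with flanks, against 43.2% over the union. Copies with fewer changes keep more of any string of the query, and the part of this in the KLF share was not tested. The class without a control peak had the KLF string in 63.3% (57.7 to 68.6) of 297 aligned heads, the class with fibroblast means of 0.5 to 1 of control in 49.1% (39.9 to 58.3) of 110 and the class open in fibroblasts at or above control in 58.6% (49.5 to 67.2) of 116.

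B1 copies were also described by their position. The midpoint was covered by 9.96% (8.01 to 12.3) of the 743 copies, against 9.32% in the union, and the median distance from the midpoint to the nearest edge was 232.5 bp. The head pointed to the midpoint in 483 copies (65.01%, 61.5 to 68.3), against 51.3% (50.7 to 51.9) of copies over the union. The share was 65.4% (60.8 to 69.7) in the class without a control peak, 61.3% (54.3 to 67.9) in the class open in fibroblasts at or above control and 49.7% (42.3 to 57.1) in that with fibroblast means of 0.5 to 1 of control, so the orientation was not particular to these intervals. For copies with the KLF string the share was 70.9% (65.1 to 76.1), and for copies with an aligned head and no KLF string 64.8% (58.3 to 70.9), intervals that overlap. B2 heads pointed to the midpoint in 59.1% (52.4 to 65.6) of 208 copies here and in 55.9% over the union.

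**Figure D4:**
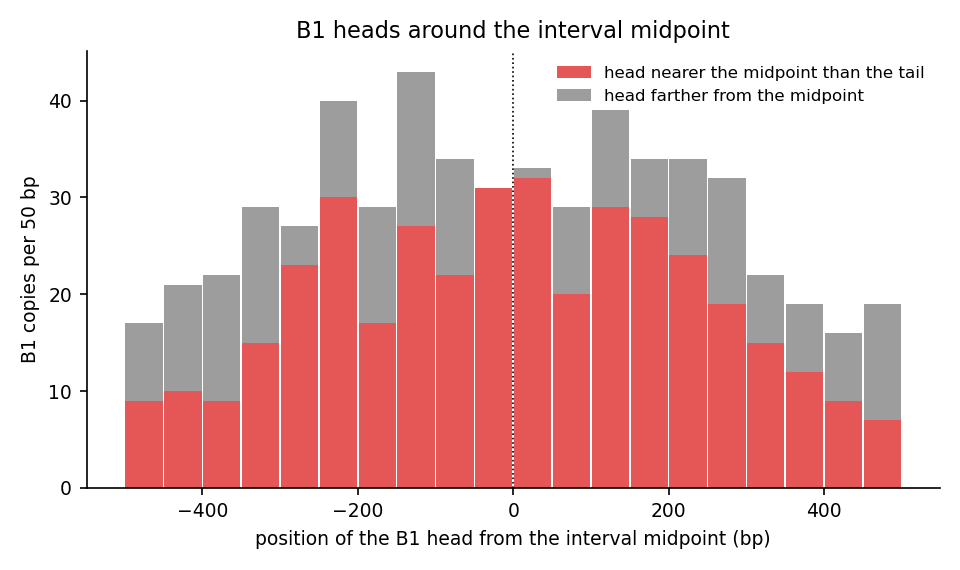
Number of B1 heads per 50 bp by their position from the midpoint of the 683 intervals, split into copies whose head is nearer the midpoint than the tail (red) and the others (grey). Copies lie on both sides, and red makes up 483 of all 743 copies, including those more than 500 bp out, which are not drawn. Heads next to 0 are red by geometry.

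Peaks in the KO were wider than in control at most of these intervals, which were chosen for higher KO signal in the same reads. All 683 overlapped a KO peak, the strongest of which had a median width of 1015 bp against 632 bp for the strongest control peak, and was the wider at 618. Its fold enrichment was the higher at 562, with medians of 3.79 in KO and 2.94 in control. Among 146345 intervals that were not listed and had a peak in both lists, the KO peak was the wider at 45.3% and the more enriched at 43.9%. Peaks were called once per group on the 3 libraries together, so these values have no replicate error, and the part of the higher signal in the width was not tested.

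The widening was greater on the side of the B1 copy. Among 411 intervals with 1 B1 copy, 1 control peak and 1 KO peak, the copy was wholly inside the control peak in 147 (35.8%) and wholly inside the KO peak in 295 (71.8%). The edges of an interval are mostly the edges of its KO peak, so a copy found inside the interval favours that side. A second comparison therefore kept the 223 intervals whose copy already had at least 60 bp inside the control peak. There the KO peak edge passed the control peak edge by a median of 98 bp on the B1 side and 36 bp on the other side, and the extension was larger on the B1 side in 142 (63.7%, 57.2 to 69.7).

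For B2 copies the order depended on this restriction. Over all 107 intervals with 1 B2 copy, medians were 129 bp on the B2 side and 66 bp on the other, and the B2 side had the larger extension in 63 (58.9%, 49.4 to 67.7). In the 66 intervals with 1 B2 copy under the same rule, the medians were 39.5 bp on the B2 side and 58.5 bp on the other, and the B2 side had the larger extension in 24 (36.4%, 25.8 to 48.4). In 8924 intervals that were not listed and held 1 B1 copy in their control peak, both medians were 0 bp, and the B1 side was larger in 51.0% (49.9 to 52.0). Among intervals with fibroblast means of 0.5 to 1 of control the B1 side was larger in 25 of 37 (67.6%, 51.5 to 80.4), and among those open in fibroblasts in 12 of 27 (44.4%, 27.6 to 62.7).

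**Figure D5:**
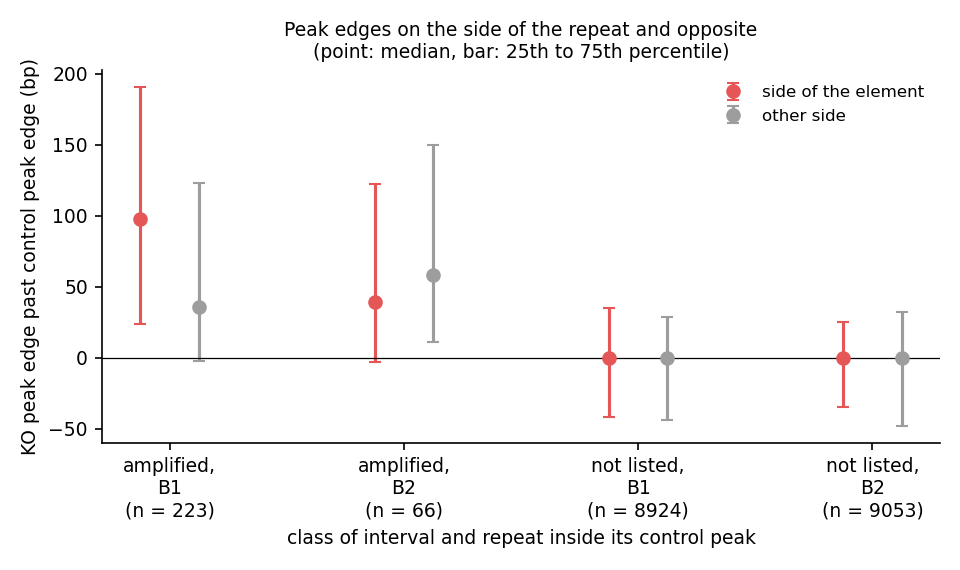
Distance in bp by which the KO peak edge lies past the control peak edge on the side of the repeat (red) and on the opposite side (grey), for intervals with 1 B1 or 1 B2 copy that has at least 60 bp inside the control peak. B1 copies were searched with 150 bp of flank and B2 copies within the interval only. Points are medians and bars run from the 25th to the 75th percentile, with medians of 98 and 36 bp for B1 in the amplified intervals and 39.5 and 58.5 bp for B2.

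Few of these intervals were called open in fibroblasts. A MEF control peak overlapped 87 of them (12.7%, 10.4 to 15.4) and a MEF KO peak 109 (16.0%, 13.4 to 18.9), against 59.7% and 58.6% of the union. Both lists had a peak at 80, the KO list alone at 29 (4.25%, 2.97 to 6.03), the control list alone at 7 (1.025%, 0.497 to 2.10) and neither at 567. The other classes leaned the same way, with the KO list alone at 15 and the control list alone at 0 of 146 intervals with fibroblast means of 0.5 to 1 of control, 1 and 0 of 160 at or above control, and 28 and 4 of 533 without a control peak. Over the union the KO list alone had a peak at 3.65% of intervals and the control list alone at 4.79%. Where peaks were present their median fold enrichment was 2.51 in MEF control and 2.49 in MEF KO. Low fibroblast signal was part of the choice, so the low overlap is no finding. The choice averaged MEF control and MEF KO and did not set one against the other. Peaks were called once per group, so the counts of 29 and 7 have no replicate error, and their difference was not tested.

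In fibroblasts without induced factors, 21 of the 683 (3.07%, 2.02 to 4.65) were also listed as more open in the KO, against 0.175% of the union. All MEF KO libraries lay above all MEF control libraries in the 21, which were on the list for that difference, so nothing is read from it. Fold changes in MEF ran from 1.39 to 4.65 with a median of 2.13, and in reprogramming, at the same intervals, from 1.29 to 2.52 with a median of 1.82. The median of the 21 was 25.9 for the MEF control mean and 53.2 for the MEF KO mean, while during reprogramming it was 168 for control and 290 for KO, an order that the fibroblast bound and the KO direction in the choice fixed. B1 was present in 17 of the 21. The other classes had 11 of 146 (7.53%), 21 of 160 (13.1%) and 17 of 533 (3.19%) in the MEF list, and the differences were not tested.

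The largest MEF ratio was at Interval_169535 (chr3:116622693-116623354), in an intron of Sass6, which encodes a centriole assembly protein. MEF counts were 3.60, 5.50 and 5.74 in control and 26.2, 18.5 and 24.2 in KO (4.65-fold), and reprogramming counts 48.05, 46.3 and 47.0 in control and 97.0, 112 and 122 in KO (2.34-fold). Interval_233483 (chr7:119800235-119801195), in an intron of the RNA exonuclease gene Rexo5, rose from 6.95 ± 2.11 to 23.3 ± 2.08 in MEF (3.35-fold) and from 77.8 ± 8.39 to 177 ± 27.1 in reprogramming (2.28-fold). Both intervals had low counts in MEF control, at which a few reads move a ratio.

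The next 2 were neighbours at Bclaf3 on the X chromosome. Interval_271979 (chrX:159528162-159529830), in an intron, had 8.63, 8.25 and 20.1 in MEF control and 44.3, 38.4 and 34.3 in MEF KO (3.17-fold), and rose 1.82-fold in reprogramming. Interval_271978 (chrX:159517278-159518069), 9015 bp upstream of the start site and without a B1 element, had 6.47, 5.50 and 9.56 in MEF control and 30.3, 19.9 and 11.1 in MEF KO (2.85-fold), and rose 1.84-fold in reprogramming. The third KO library there was close to the highest control library.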

How the data were processed

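Omni-ATAC-seq reads of 12 libraries were processed by the authors, whose notes name FastQC, cutadapt, BWA, Picard, bedtools, SAMtools, MACS2 and DESeq2 and the build GRCm38.p6. According to their methods, mitochondrial, blacklisted, duplicate and improperly paired reads were removed and peaks were kept at a false discovery rate of 0.1. The deposited tables list intervals that differed between KO and control at 0.05, with raw read counts per interval and with normalised values (each count over its library's DESeq2 size factor), a signal on 1 scale for all 12 libraries. The mean of all 12 in those tables gave the fibroblast mean of 6 by subtraction, which matched the direct mean within 1.0e-12 at the 70 intervals listed in both tables. The deposited broad peaks, 1 list per group, hold MACS2 fold enrichment (a ratio) and −log10 q-values, of which the latter are not reported here, and the gapped-peak blocks were not needed. Columns with the authors' own fold changes and p-values were not used.

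The members, gene lists and comparisons were chosen with earlier results of these data known. The side comparison of peak edges, 2 alternatives for the head-facing share, and the shares of all genes and of unlisted peaks were added after values had been seen. The 4 peak lists were merged with bedtools 2.31.1 into 273256 intervals. B1 and B2 queries of 146 and 175 bases were built from the reference and aligned with BLAST+ 2.17.0 (blastn, word size 7, E-value under 1e-05, at least 60 aligned bases). Genes were from the GENCODE annotation of this build. Named intervals were the 6 largest and 3 smallest ratios, the 3 highest control means, the 6 largest ratios over protein-coding start sites, up to 4 per gene list, the 4 largest MEF ratios and 3 on each side of the fibroblast bound. Sequences shown were the 4 largest ratios among them with a KLF string on B1. Some items are not reported here. Scripts were tested on simulated data. Values are mean ± SD of 3 libraries, and shares carry 95% Wilson intervals, which cover counting error only, since intervals that share a repeat family are not independent. Replicate pairs differed by more than sampling noise (chi-square over degrees of freedom 1.18 to 1.46), so none was counted as a duplicate. No sample was left out and no p-value was computed.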

Additional observations from a re-analysis of the deposited data

How the results depend on the processing

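No paired analysis was possible because the results come from no test. Of 46 alternative values, 27 stayed within 1.5 times a count, the replicate spread or the counting interval. The number of intervals was 520 and 779 with fibroblast bounds of 0.25 and 0.75, 498 where the control peak covered at least 50% of the interval and 322 with control peaks of at least 3-fold enrichment. Leaving out each library gave 679 to 683 intervals and median log2 ratios of 0.84 to 0.89. Raw counts, not scaled for depth, gave a median log2 ratio of 0.75. B1 shares were 66.0% with at least 100 aligned bases, 78.9% at an E-value under 1e-10 and 43.9% in the central 400 bp, and B2 shares 18.2% with 100 bases and 9.22% in the central 400 bp. In the central 400 bp, shares of KLF, AP-1, SOX and OCT strings were 31.2%, 14.2%, 10.1% and 2.78%, and KLF with B1 masked was 44.7%: a shorter window holds fewer matches by construction. Head-facing shares ran from 61.8% to 67.4%. Promoter shares were 3.81% within 500 bp, 16.7% within 2000 bp and 5.56% by overlap with a start site. MEF control peaks covered at least 50% of the interval at 2.49% and MEF KO peaks at 5.56%, and peaks of at least 3-fold enrichment overlapped 4.54% for either. Fibroblast libraries could not be left out singly, since only their mean is given for most intervals.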
